A study of Homo sapiens with 2 samples.

Results

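The EGR and NR4A genes, with IER2 and IER3, are immediate early genes. The set held 9 genes, EGR1, EGR2, EGR3, EGR4, NR4A1, NR4A2, NR4A3, IER2 and IER3, chosen by name and not by their values. Each array feature whose deposited gene name was one of these was taken, which gave 20 of the 45033 features and 9 of the 23595 named genes. They were measured in TE-1, an established human oesophageal squamous carcinoma line grown in DMEM with serum and antibiotics. The control group was 1 sample of TE-1 cells transfected with empty pcDNA3.1, and the other group was 1 sample transfected with pcDNA3.1 carrying PAX2. Both were taken 24 h after transfection, and the comparison asks which genes PAX2 activates. PAX2 encodes a transcription factor with a paired domain that acts in the developing kidney. With 1 single-colour NimbleGen array for each group, the differences below are without replicates and no p-value can be given.

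Immediate early genes are transcribed within minutes of a growth factor, serum or stress signal, without the need for new protein, and their transcripts and proteins are mostly short-lived. Many are switched on when MAP kinases act on ETS-family partners of serum response factor (SRF), bound at the CArG box, or when CREB is phosphorylated at cyclic AMP response elements (CRE). EGR1 to EGR4 encode zinc finger transcription factors that bind GC-rich sites. NR4A1, NR4A2 and NR4A3 encode orphan nuclear receptors (also called NUR77, NURR1 and NOR1) that act largely through their abundance, since they are regarded as active without a ligand. IER2 encodes a small nuclear protein and IER3 (also called IEX-1) a regulator of cell survival and ERK signalling.

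Promoter windows of RefSeq (build GRCh38.p14, 250 bases before to 50 after a start site) were matched by symbol for EGR1, EGR2, EGR4, NR4A1, NR4A3 and IER2, 9 windows in all. They were searched on both strands for the CArG box, the CRE (TGACGTCA) and its half-site (TGACG), the EGR sites GCGTGGGCG and GCGGGGGCG, and the NR4A monomer site AAAGGTCA. Each full CRE also holds half-sites. Windows of EGR3, NR4A2 and IER3 were not searched. The windows below are shown because EGR1 and NR4A1 had the largest increases of the set, EGR2 also holds a CArG box, and NR4A3 holds the most half-sites. Capitals mark CArG boxes and CRE half-sites.
EGR1 (chr5:138465229-138465528, plus strand): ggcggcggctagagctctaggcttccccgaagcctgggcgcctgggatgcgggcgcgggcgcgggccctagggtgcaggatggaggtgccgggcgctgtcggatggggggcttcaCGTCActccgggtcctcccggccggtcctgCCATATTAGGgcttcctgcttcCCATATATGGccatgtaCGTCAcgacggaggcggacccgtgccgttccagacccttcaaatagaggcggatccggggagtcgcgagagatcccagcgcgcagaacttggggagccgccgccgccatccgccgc
EGR2, the most downstream of its 3 starts (chr10:62816317-62816616, minus strand): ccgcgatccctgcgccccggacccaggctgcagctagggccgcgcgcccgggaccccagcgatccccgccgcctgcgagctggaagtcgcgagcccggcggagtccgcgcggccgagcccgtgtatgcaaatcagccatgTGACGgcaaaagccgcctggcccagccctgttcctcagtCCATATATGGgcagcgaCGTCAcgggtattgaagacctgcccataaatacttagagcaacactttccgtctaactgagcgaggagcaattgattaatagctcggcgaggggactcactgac
NR4A3 (chr9:99821635-99821934, plus strand): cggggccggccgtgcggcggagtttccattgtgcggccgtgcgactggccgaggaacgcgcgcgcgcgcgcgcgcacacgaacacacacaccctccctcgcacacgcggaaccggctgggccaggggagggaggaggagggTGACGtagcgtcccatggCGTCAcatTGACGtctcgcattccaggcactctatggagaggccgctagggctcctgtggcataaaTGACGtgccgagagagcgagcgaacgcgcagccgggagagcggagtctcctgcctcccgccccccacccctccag
NR4A1, the second of its 2 starts (chr12:52037465-52037764, plus strand): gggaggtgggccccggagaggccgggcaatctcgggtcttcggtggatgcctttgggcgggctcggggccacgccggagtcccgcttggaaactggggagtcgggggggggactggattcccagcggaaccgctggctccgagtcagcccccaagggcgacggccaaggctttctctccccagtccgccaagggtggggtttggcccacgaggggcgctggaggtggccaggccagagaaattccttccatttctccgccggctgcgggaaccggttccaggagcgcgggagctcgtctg

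The EGR1 window held 2 CArG boxes, ending 96 and 74 bases upstream of the start site, and 2 CRE half-sites. The EGR2 window held 1 CArG box, ending 62 bases upstream, and 2 half-sites, and the other 2 EGR2 windows held none of the motifs searched. The NR4A3 window held 4 half-sites, the EGR4 window 2 and the IER2 window 1. Neither NR4A1 window held any of the motifs searched. The windows were not matched to the starts of the array features. The 2 NR4A1 windows are spaced otherwise than the starts of its 2 features, so not every such start was searched. No window of the 6 genes held the full CRE, either EGR site or the NR4A site. Over all 35116 windows of the table, 1.29% held a CArG box, 24.6% a half-site, 1.85% the full CRE, 5.77% an EGR site and 1.22% the NR4A site.

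The level of a feature is its deposited intensity on the linear scale, from 3 probes, and every difference is log2 of the PAX2 vector array minus log2 of the control array. Positions of features are those of the files (build HG18) and span a whole transcript, introns included, while the positions of single probes were not used here. Intensities are given with the empty vector before those with the PAX2 vector. The median feature stood at 205 and 210, and the random-sequence probes at 20.6 and 19.3. PAX2 itself lay at the level of the random probes in both samples, with 22.2 and 22.1 in its only feature. The PAX2 feature thus does not check the labels, and the second sample is called PAX2-labelled. A gene was treated as measured where its mean log2 value was no lower than that of the median feature in either sample or in both, which 11628 genes did. It was treated as within the silent range where this mean was at or below the 95th percentile of 376 olfactory receptor genes, which was 134 and 142 as an intensity. Of the squamous and epithelial markers of TE-1, 6 of 11 were measured (SFN, KRT5, KRT8, KRT14, KRT17 and KRT18), while TP63, CDH1, DSG3, KRT6A and EPCAM were not. All 6 measured markers were above 0, as were 53.4% of all measured genes. Their median difference was 0.30, with the highest in KRT5 (0.72). TP63, CDH1, DSG3 and KRT6A lay within the silent range on both arrays, and EPCAM on the PAX2-labelled array alone. Their differences were 0.15 (TP63), -0.17 (CDH1), -0.73 (DSG3), -0.40 (KRT6A) and -0.30 (EPCAM). The summed intensity of the 11 was 72758 and 88387, most of it from SFN, KRT8 and KRT18. The 5 leukocyte and the 4 endothelial markers all lay within the silent range on both arrays. Of 5 fibroblast markers 2 were measured, COL1A1 (difference 0.46) and DCN (0.09), and the summed intensity of the 5 was 1496 and 1899. The part of these shifts in the results below was not tested.

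Of the 9 members, 4 were measured: NR4A1, NR4A2, IER2 and IER3. None of these 4 was 2-fold different in either direction. Among all measured genes 1.13% passed 2-fold upwards and 1.16% downwards. NR4A1 came closest, at 1.87-fold higher, and was the 1 member past 1.5-fold, as were 4.51% of measured genes upwards and 3.22% downwards. Without the filter EGR1 was the 1 of 9 members past 2-fold, upwards, where 3.2% of all genes passed upwards and 4.07% downwards. EGR1 was higher in both of its features but lay below the filter. Its mean came close to the filter only in the PAX2-labelled sample, and its control mean lay within the silent range. EGR2, EGR3 and EGR4 lay at the level of the random probes. Over the 20 features 11 were above 0, 8 below and 1 exactly at 0, where the median difference of all features was 0.016.

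**Figure D1:**
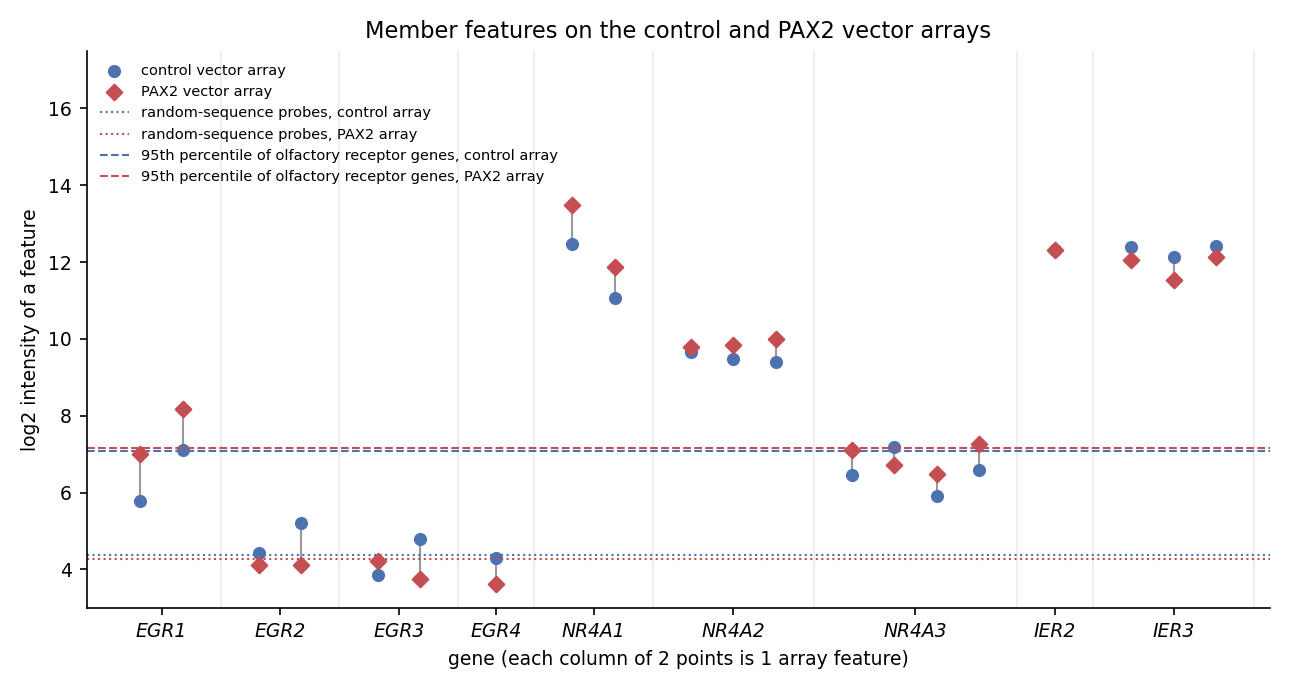
Log2 intensity of each of the 20 member features (vertical axis) on the control array (blue circles) and the PAX2-labelled array (red diamonds), by gene; dotted lines mark the random-sequence probes and dashed lines the 95th percentile of olfactory receptor genes on each array. Both NR4A1 features and both EGR1 features were higher in the PAX2-labelled sample, all 3 IER3 features were lower, and EGR2, EGR3 and EGR4 sat near the dotted lines.

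EGR1, a zinc finger factor that couples growth and stress signals to its target genes, had 2 features over one short transcript. The feature NM_001964 (chr5:137829079-137832903) went from 138 with the empty vector to 289 in the PAX2-labelled sample. The feature BC073983 (chr5:137829087-137832173) had 54.6 and 129. Both were thus brighter in the PAX2-labelled sample, by 1.07 and 1.24 on the log2 scale (2.09-fold and 2.36-fold). Their mean log2 values were 6.44 and 7.59, a difference of 1.15 (SD between features 0.12, n = 2 features). The control mean lay within the silent range, so EGR1 can only be called at least 1.44-fold higher.

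Such differences were common at this brightness. The features of EGR1 fell in groups 4 and 5 of 10 equal groups of features, ordered from dim to bright. In these, 11.7% and 5.84% of features passed 2-fold upwards. The SD of a single feature within a gene was 0.79 and 0.64 there. The bound given for EGR1 makes no allowance for this spread. A gene with both or all of its features at least 2-fold higher was less frequent. Of the 11864 genes with several features 30 (0.253%) met that rule, EGR1 among them. That share pools genes of every brightness. With the filter 4 of 6564 genes met the rule, so most of the 30 lay below the filter, as EGR1 did. Among genes below the filter the share is thus higher than 0.253%. This rule was chosen after the EGR1 values were seen. The PAX2-labelled mean of EGR1 (7.59) fell short of the median feature there (7.71), so the gene is not among the 4 measured members.

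EGR2 (also KROX20), a regulator of hindbrain patterning and Schwann cell myelination in the mouse, was near the random probes on both arrays. Its feature NM_000399 (chr10:64241762-64246133) had intensities of 36.9 and 17.3, and BC035625 had 21.7 and 17.3. Relative to the random probes the gene mean was 0.46 with the empty vector and -0.15 in the PAX2-labelled sample, on the log2 scale. EGR3, which is needed for muscle spindles in the mouse, had 27.9 and 13.5 in one feature and 14.5 and 18.7 in the other, so its features differed in sign. EGR4, known from male germ cell development in the mouse, had 1 feature (NM_001965, chr2:73371569-73374118) with 19.5 and 12.4. All 3 genes lay within the silent range on both arrays, so no fold is given for them.

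NR4A1, a receptor that growth and stress signals induce in many cell types, had the largest difference of the measured members. Its feature NM_002135 (chr12:50731457-50739554) went from 5723 to 11526. The feature NM_173158, which starts upstream and ends inside that transcript (chr12:50723762-50736019), had 2149 and 3725. Both were higher in the PAX2-labelled sample, by 1.01 and 0.79 on the log2 scale, a mean of 0.90 (SD 0.15, n = 2 features) or 1.87-fold. This placed NR4A1 at rank 178 of 11628 measured genes from the highest difference, with 1.53% of them at or above it. In RNA from bulk cells, more transcript per cell and more cells with the transcript cannot be told apart.

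NR4A1 was bright, where large differences were rare. Its features fell in groups 9 and 10 of brightness, in which the SD of the difference over all features was 0.28 and 0.25, and 0.333% and 0.311% of features were at least 2-fold higher. The feature NM_002135 (1.01), in group 10, passed 2-fold, while NM_173158 (0.79), in group 9, and the gene mean did not. Among 6564 measured genes with several features, 57 (0.868%) were at least 1.5-fold higher in every feature, NR4A1 among them, a rule chosen after its values were seen. In the reference table a gene named NR4A1AS and 2 uncharacterised RNA genes (LOC124902934 and LOC107984510) overlap NR4A1. The strand that was labelled is not given in the sources used here. Therefore signal from an overlapping antisense transcript cannot be told apart from that of NR4A1.

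NR4A2, the receptor needed for midbrain dopamine neurons in the mouse, had 3 features that cover nearly the same transcript. Its feature NM_006186 (chr2:156889194-156897446) had 673 and 1014, BC066890 (chr2:156890341-156897442) had 712 and 925, and BC009288 (chr2:156889876-156897463) had 815 and 890. All 3 were higher in the PAX2-labelled sample, by 0.59, 0.38 and 0.13, and their mean difference was 0.37 (SD 0.23, n = 3 features) or 1.29-fold. The feature with the highest empty-vector intensity had the smallest difference. Of measured genes with several features, 27.9% had every feature above 0, and 11.9% of all measured genes had a difference at or above that of NR4A2. The SD of a single feature within a gene was 0.35 and 0.29 in the groups of brightness that hold these features.

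NR4A3, the third receptor of the family, was dim, and its features did not share a direction. The feature U12767 (chr9:101627920-101668994) had 95.9 and 153, D78579 (chr9:101623957-101667154) had 88.2 and 137, and NM_173199, a transcript with an early end (chr9:101623957-101636162), had 60.0 and 89.0. The fourth, NM_006981 (chr9:101623957-101668994), had 146 and 106. The first 3 were higher by 0.57 to 0.68 on the log2 scale, and the fourth was lower by 0.46. The mean difference was 0.36 with an SD of 0.55 over 4 features, and both means lay within the silent range, so no fold is given.

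IER2 had the same deposited intensity, 5129, on both arrays in its only feature (NM_004907, chr19:13122281-13126722), and its difference was therefore 0. Equal values to all deposited decimals occurred in 42 of the 45033 features (0.0933%), and the cause was not tested. IER2 was bright on both arrays, at 249 and 266 times the random probes. Being a single feature, it has no second feature to set beside it.

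IER3 was the only measured member with a lower level in the PAX2-labelled sample. Its feature NM_003897 had 4447 and 2990, NM_052815 had 5452 and 4518, and BC000844 had 5339 and 4281. The first 2 share the span chr6:30818955-30820303, and BC000844 covers nearly all of it (chr6:30818955-30820290). All 3 were lower in the PAX2-labelled sample, with differences of -0.57, -0.27 and -0.32 and a mean of -0.39 (SD 0.16, n = 3 features), or 1.31-fold lower. Of all measured genes 7.21% had a difference at or below that of IER3. Of those with several features, 19.8% had every feature below 0. IER3-AS1, an antisense RNA gene, overlaps IER3 in the reference table, and the note on strand made for NR4A1 applies here too.

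**Figure D2:**
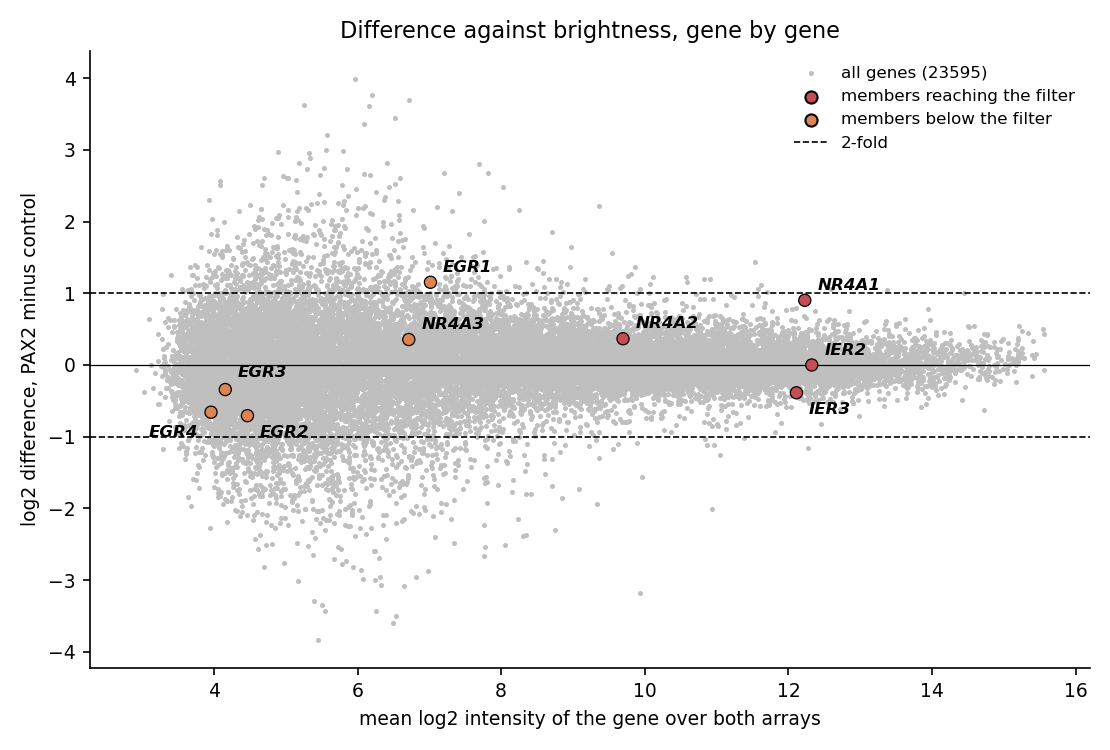
Log2 difference (PAX2-labelled minus control, vertical axis) against mean log2 intensity over both arrays (horizontal axis) for all 23595 genes (grey), the 4 measured members (red) and the 5 below the filter (orange); dashed lines mark 2-fold. NR4A1 (0.90) stood near the upper edge of the grey points of its brightness, and EGR1 (1.15) lay among many dimmer genes with differences of that size.

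The members did not differ as a block. The median difference of the 4 measured ones was 0.18, with 2 above 0, 1 below and 1 at 0, beside a median of 0.02 over all measured genes. Over all 9 members without the filter it was 0. Within the bright members the order of differences was NR4A1 (0.90), NR4A2 (0.37), IER2 (0) and IER3 (-0.39). The lowest NR4A1 feature (0.79) was above the highest NR4A2 feature (0.59), and the lowest NR4A2 feature (0.13) was above IER2 and above every IER3 feature (highest -0.27). The features of a gene come from the same RNA and the same array, so this order describes the 2 arrays and not the spread between cultures. Levels of different genes are not compared, since the intensities of different probes are on scales of their own.

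The genes that switch immediate early genes on showed differences of both signs. Of 16 upstream genes (SRF, its ETS and MRTF partners, MAP kinases, their upstream and downstream kinases, CREB1 and ATF1), 15 were measured: 1, MRTFB, passed 2-fold upwards, none downwards, and 14 did not. The median was 0.11, with 11 above 0 and 4 below. Over all measured genes the median was 0.02, and 53.4% were above 0. MRTFB, an actin-regulated SRF coactivator, had 103 and 243 in its only feature. It met the filter on the PAX2-labelled array alone, where it is the higher. Its control value lay within the silent range, so it can only be called at least 1.81-fold higher. That bound also makes no allowance for error. With the 75th percentile filter or an offset of 64, 0 of the upstream genes passed 2-fold. RPS6KA4, a kinase downstream of MAP kinases, had the next highest difference (0.60, from 0.54 to 0.65 over 2 features, 1.51-fold). ATF1, a relative of CREB1, had the lowest difference (-0.36, with 1649 and 1285). SRF itself had a mean difference of 0.25, from -0.08 to 0.59 over its 2 features.

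None of the measured partners of the EGR and NR4A proteins was 2-fold different. NAB2, a corepressor that binds EGR proteins and is itself induced by EGR1, had intensities of 702 and 802 in its only feature, a difference of 0.19. NAB1, the other corepressor, was below the filter, with a difference of 0.13. RXRA and RXRB, retinoid X receptors that can pair with NR4A1 and NR4A2, had differences of 0.31 (from -0.18 to 0.88 over 5 features) and 0.17 (from 0.03 to 0.25 over 4 features). RXRG was within the silent range on both arrays. All 3 measured genes of this group of 5 were above 0, as were 53.4% of all measured genes.

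Of 28 other immediate early genes 24 were measured, 1 was at least 2-fold higher and none 2-fold lower. The median was 0.22, with 20 above 0 and 4 below, where 53.4% of all measured genes were above 0. FOSB, an AP-1 subunit, was the 1 past 2-fold (669 and 1343, difference 1.00, 1 feature), and its difference was 0.97 after centring, quantile normalization or loess. FOSL1, another AP-1 subunit, had the lowest difference (-0.22). IER5, a relative of IER2, had a difference of 0.22. This list shares with the 9 members the description immediate early and no gene.

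EGR1 target genes had no direction in common. Of 14 genes known as targets 8 were measured, none was 2-fold different in either direction, and 4 were above 0 and 4 below. The median was -0.0055, beside 0.02 for all measured genes, and its sign was positive with the brightest feature of each gene (0.13) and without the filter (0.04). VEGFA, the endothelial growth factor, had the highest difference (0.47, from 0.10 to 0.63 over 5 features) and ICAM1, a leukocyte adhesion molecule, the lowest (-0.37, with 1592 and 1228 in 1 feature). TGFB1, with intensities of 5585 and 5668, had a difference of 0.02.

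**Figure D3:**
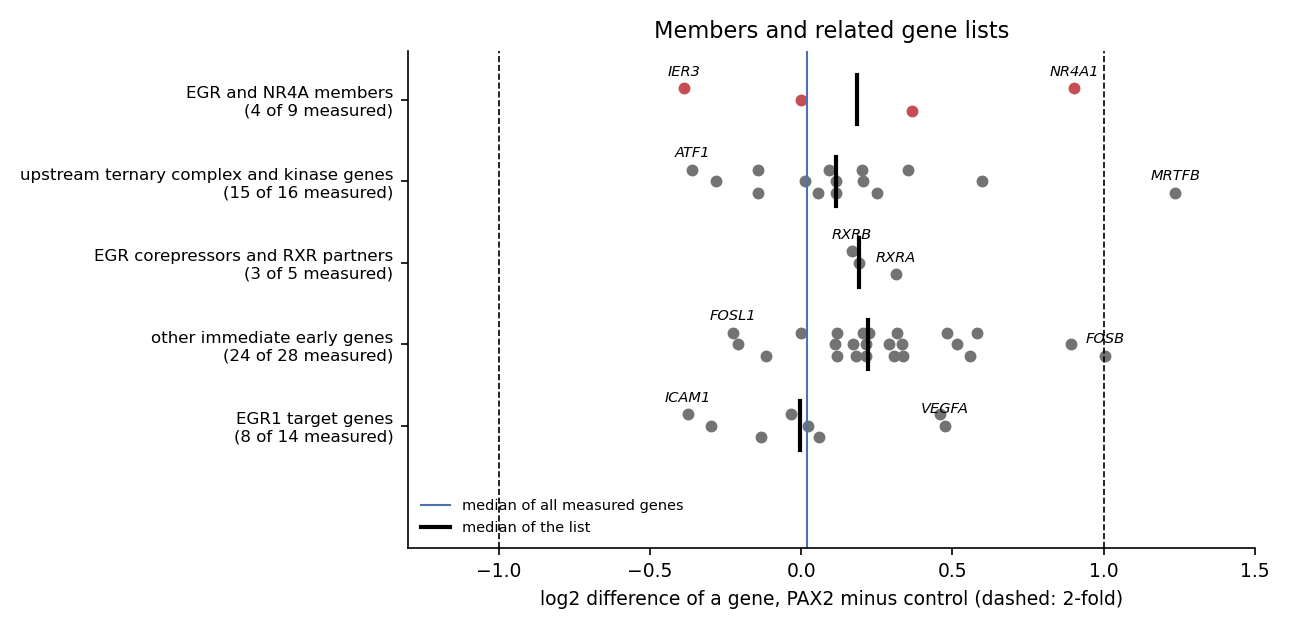
Log2 difference of each measured gene (points, PAX2-labelled minus control, horizontal axis) for the members and 4 related lists, with the median of each list (black bar) and of all measured genes (blue line); the genes with the lowest and highest difference are named and dashed lines mark 2-fold. The members ran from -0.39 (IER3) to 0.90 (NR4A1), and the list of other immediate early genes had the highest median (0.22).

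NR4A1, NR4A2 and IER3 kept the sign of their difference, and stayed within 2-fold, under each rescaling of the arrays. Centring, quantile normalization and loess gave NR4A1 0.87, 0.88 and 0.88, NR4A2 0.33 in each, and IER3 -0.42, -0.40 and -0.40. IER2, at exactly 0 as deposited, was just below 0 under all 3 (between -0.03 and -0.02). For the members with several features, the choice of feature moved the value more. With the brightest feature in place of the mean, NR4A1 was 1.01 and so past 2-fold, NR4A2 was 0.13, and NR4A3 turned from 0.36 to -0.46. EGR1 was 1.07 with its brightest feature, which reached the filter on the PAX2-labelled array alone, where it is the higher. An offset of 64 added to each intensity reduced it from 1.15 to 0.75.

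**Figure D4:**
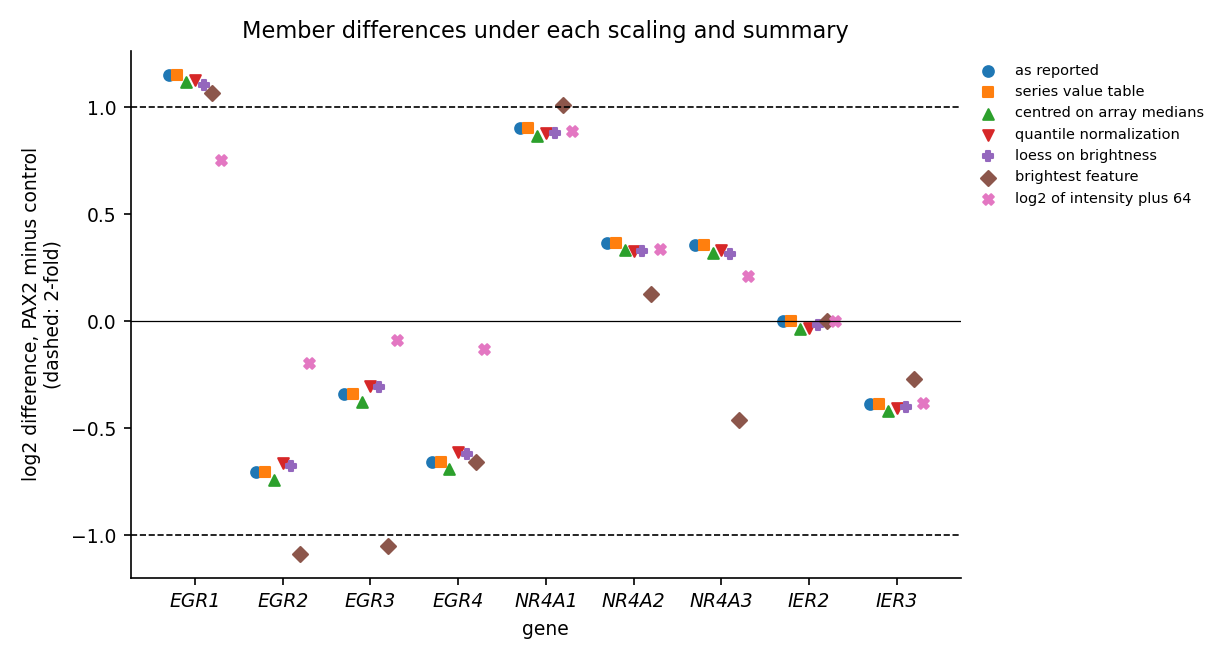
Log2 difference of each member (vertical axis, PAX2-labelled minus control) as reported and under 6 alternatives, each with its own marker; dashed lines mark 2-fold. The 3 rescalings lay close to the reported values for all 9 genes, the brightest feature moved NR4A3 from 0.36 to -0.46, and the offset of 64 drew the dim EGR genes towards 0.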

How the data were processed

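Total RNA was hybridised to 1 Cy3 array per group. The authors deposited linear-scale intensities made with RMA, per the submitters' processing notes, which give no settings or between-array step. The deposited series table holds the same 45033 intensities. A deposited standard error of unstated meaning was not used. Features were named through the gene identifier in the files (array design on HG18), and 38916 matched a current symbol in the reference table. Log2 intensities were averaged over the features of a gene, with no pseudocount and no further normalization, in Python 3.11.15 with pandas 2.3.3 and statsmodels 0.14.6 (loess, fraction 0.3). No test was possible with 1 array per group. A difference was called at 2-fold. The calculation was tested on simulated data with less noise than any group of brightness here and larger differences than any member had. That test checks the code and not the precision of the values reported. The SD between features covers neither culture nor hybridisation, and precision is limited by having 2 arrays. All members are named; from other lists, those past 2-fold and the highest and lowest. Members of the corepressor list, the named cell type markers, RPS6KA4, IER5, SRF and TGFB1 stand as examples. An item of the EGR1 target list is not reported here and was left out of its counts. The members, lists and alternatives were chosen with earlier results of these data known.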

Additional observations from a re-analysis of the deposited data

How the results depend on the processing

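No paired analysis was possible because there is 1 array per group. The count of measured members at least 2-fold higher, 0 as reported, was 2 with the brightest feature (NR4A1, and EGR1, which met the filter on the PAX2-labelled array alone), 1 with no filter (EGR1) and 1 at a 1.5-fold threshold (NR4A1); the count of those 2-fold lower was 0 in all settings run. Without the filter the median of all 9 members was 0. Of the upstream genes 0 were 2-fold higher with an offset of 64 or the 75th percentile filter. Of the other immediate early genes 0 were 2-fold higher after centring, quantile normalization, loess or an offset of 64, and 2 with no filter (FOSB and JUN, the latter within the silent range on both arrays). The median of the corepressor and RXR list was 0.25 with the brightest feature and 0.24 with the 75th percentile filter, and that of the EGR1 targets was 0.13 with the brightest feature. The counts of all genes 2-fold higher and lower (131 and 135) became 217 and 260 when the brightest feature was used, 755 and 960 when no gene was filtered and 21 and 11 under the stricter filter. A threshold of 1.5-fold gave 524 and 374, one of 3-fold gave 28 and 55, and an offset of 64 left 68 higher and 91 lower. After centring they were 115 and 143, after quantile normalization 114 and 144, and after loess 115 and 149. The cause was not tested. In all, 120 of 144 recomputed list values and counts, and 51 of 55 others, stayed within their spread or within 1.5 times. Some of these could not move. The series table holds the same 45033 intensities, and the brightest feature cannot change a gene with 1 feature. Counts of 0 that stayed at 0 are also included, so the tally does not measure robustness. Low signal over background limits EGR1 to EGR4 and NR4A3.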
